A study of Rattus norvegicus with 6 samples.

Results

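Integrin alpha V, integrin alpha 5 and 8 further integrin chains of stromal cells were followed in rat bone marrow-derived mesenchymal stem cells (BMSCs) that overexpressed FNDC5. The 10 genes were picked by name as chains of candidate irisin receptors and the main matrix receptors of stroma: the alpha chains Itgav, Itga5, Itga1, Itga3, Itga8 and Itga11, and the beta chains Itgb1, Itgb3, Itgb5 and Itgb8. Each had 1 row among the 33508 genes of the count table, and all 10 had at least 1 read. The 10 were chosen with earlier results of these data known. RNA-seq was performed on 3 libraries of BMSCs-OE-FNDC5, transduced with lentivirus carrying rat FNDC5, and on 3 libraries of BMSCs-OE-NC, transduced with the blank vector. BMSCs of both groups came from the marrow of rats aged 2 months, were used at 3 passages, were exposed to virus (multiplicity of infection 10) for 72 h, and then underwent hypoxia and serum deprivation (H/SD) for 24 h under 1% O2, 94% N2 and 5% CO2 without glucose or serum. The promoter that drove FNDC5 is not given in the sources used here, and no library without H/SD or without virus was compared. The labels name the 3 libraries of a group biological replicates without saying whether they were separate animals or cultures, so p-values measure the spread between these libraries, which may be technical.

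Integrins are receptors for extracellular matrix, each built from 1 alpha and 1 beta chain, and the alpha chain sets most of the choice of ligand. The alpha V chain pairs with several beta chains and binds ligands that carry an Arg-Gly-Asp (RGD) sequence, such as vitronectin, fibronectin and latent TGF-beta, whereas alpha 5 pairs with the beta 1 chain alone and is the classic fibronectin receptor. FNDC5 is a membrane protein with a fibronectin type III domain, its shed outer part is irisin, and alpha V integrins have been described as irisin receptors in bone and fat cells. In mesenchymal stem cells these receptors hold cells to matrix and pass survival signals through focal adhesions. Only transcripts were measured here, not heterodimers at the cell surface or irisin binding.

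The transcription factor followed in the study was Sp1, which binds GC boxes, so the stretch before the start of 4 chains is shown: Itgav and Itgb1, which were both lower in BMSCs-OE-FNDC5, Itga5, which was higher, and Itgb5, which did not pass the test. Each is the 250 bases before the gene start in the RefSeq annotation of GRCr8, written 5′ to 3′ on the strand of the gene, with capitals for the GC box GGGCGG or its complement CCGCCC. The Itgav stretch lies at chr3:89245132-89245381 (+), that of Itgb1 at chr19:73602027-73602276 (+), that of Itga5 at chr7:136381306-136381555 (-) and that of Itgb5 at chr11:80449374-80449623 (-).
Itgav: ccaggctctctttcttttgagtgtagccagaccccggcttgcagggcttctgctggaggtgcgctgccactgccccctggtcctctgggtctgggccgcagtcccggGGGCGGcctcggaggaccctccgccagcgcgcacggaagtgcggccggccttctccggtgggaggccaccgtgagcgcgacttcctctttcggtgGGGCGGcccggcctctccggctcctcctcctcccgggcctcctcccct
Itgb1: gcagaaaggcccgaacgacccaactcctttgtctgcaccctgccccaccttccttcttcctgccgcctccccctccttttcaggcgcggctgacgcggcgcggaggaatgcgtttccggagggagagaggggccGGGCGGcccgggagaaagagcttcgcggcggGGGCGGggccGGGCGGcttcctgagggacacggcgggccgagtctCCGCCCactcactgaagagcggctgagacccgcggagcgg
Itga5: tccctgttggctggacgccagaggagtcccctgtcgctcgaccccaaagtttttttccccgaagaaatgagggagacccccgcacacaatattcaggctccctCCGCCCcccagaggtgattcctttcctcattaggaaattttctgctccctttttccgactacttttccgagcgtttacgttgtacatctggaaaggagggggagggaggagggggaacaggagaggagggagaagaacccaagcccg
Itgb5: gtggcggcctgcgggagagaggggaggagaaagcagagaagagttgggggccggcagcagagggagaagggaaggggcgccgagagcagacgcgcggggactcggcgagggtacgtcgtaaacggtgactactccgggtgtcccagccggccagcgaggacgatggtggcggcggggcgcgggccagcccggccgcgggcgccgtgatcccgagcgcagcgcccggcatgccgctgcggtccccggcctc
The Itgb1 stretch held 4 GC boxes, the nearest 40 bases before the start. The Itgav stretch held 2, at 143 and 48 bases before the start, the Itga5 stretch held 1 at 147 bases, and the Itgb5 stretch held 0 although 74.4% of its bases were G or C. Of the 9 chains with a promoter in the RefSeq table, 6 had at least 1 GC box. Among them were Itga3 with 2 and Itga11 with 1, neither of which passed the test, and Itgb8 with 1, which was lower. Itga1 and Itga8 had 0, and both were lower, Itga8 with the largest change of the tested chains (log2 fold change -4.50). A link between the number of boxes and the direction of change was not tested. Across 33469 promoters of the same length, 30.5% had at least 1 GC box, 14.8% at least 2 and 7.41% at least 3. These promoters were taken whether or not the gene had counts here, whereas all 9 chains had counts. The share among genes with counts was not computed, so the chains cannot be called rich in GC boxes. These matches are letters in a window, and binding of a factor was not measured.

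Total counts were 16640635 to 17229490 in BMSCs-OE-FNDC5 and 17430287 to 17965722 in BMSCs-OE-NC, and Fndc5 was counted 64195 to 65589 times in BMSCs-OE-FNDC5 against 17 to 25 times in BMSCs-OE-NC. Of 12104 genes tested with edgeR, only 2943 did not pass an adjusted p of 0.05, so a call in either direction was common. In BMSCs-OE-FNDC5 36.9% were higher and 38.8% lower, and the marker counts below stand against these shares. Of 12 stromal markers 11 were tested, 3 were higher and 8 lower in BMSCs-OE-FNDC5, and Pdgfrb, a receptor for platelet-derived growth factor, had a log2 fold change of -1.62, whereas the surface antigen Thy1 had 1.29. Smooth muscle and pericyte markers summed to 2099 to 2133 FPKM in BMSCs-OE-FNDC5 against 698 to 710 FPKM in BMSCs-OE-NC. Of 10 such markers 8 were tested, 6 were higher and 1 lower. The muscle filament gene Des gave most of the sum (mean 1683 FPKM in BMSCs-OE-FNDC5 against 503 FPKM in BMSCs-OE-NC). FPKM here are counts scaled to gene length and to 1 constant per library, which differed from the total count. Of 12 leukocyte markers 5 were at 0 counts in all 6 libraries, among them Ptprc, Itgal, Mpo and S100a9. Only 2 were tested, and 2 of 2 were higher in BMSCs-OE-FNDC5. The leukocyte list summed to 118 to 122 FPKM in BMSCs-OE-FNDC5 against 57.4 to 60.4 FPKM in BMSCs-OE-NC. Nearly all of it was Cd14, which averaged 116 FPKM in BMSCs-OE-FNDC5 and 57.0 FPKM in BMSCs-OE-NC. At 0 counts were also 5 of 9 osteoclast markers, 6 of 9 endothelial markers, 6 of 10 platelet markers and 7 of 10 epithelial markers. Of their members that could be tested, 0 of 2 osteoclast markers passed, whereas 1 of 1 endothelial marker (0.81), 1 of 1 platelet marker (1.06) and 2 of 2 epithelial markers (median 0.88) were higher in BMSCs-OE-FNDC5. The endothelial list summed to 62.1 to 64.4 FPKM in BMSCs-OE-FNDC5 against 34.7 to 37.2 FPKM in BMSCs-OE-NC, nearly all of it Egfl7, and the platelet and epithelial lists stayed below 3 FPKM in every library. Of 13 retina and neuron markers, included because the extraction label speaks of retinas, 5 were at 0 counts in all 6 libraries. Both that could be tested, the tubulin regulator Stmn2 and the tubulin Tubb3, were higher in BMSCs-OE-FNDC5 (log2 fold changes 1.29 and 2.21), and the list summed to 20.6 to 22.0 FPKM in BMSCs-OE-FNDC5 against 7.66 to 9.63 FPKM in BMSCs-OE-NC. In bulk RNA, fewer cells of a type and less RNA per cell cannot be told apart, and the part of these markers in the integrin values was not tested.

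Of the 10 chains, 9 had enough counts to be tested and Itgb3 had not. In BMSCs-OE-FNDC5 1 of the 9 tested chains was higher at an adjusted p below 0.05, against 36.9% of all genes tested, and 5 of 9 were lower, against 38.8%. The higher chain was Itga5, and the lower ones were Itgav, Itgb1, Itgb8, Itga1 and Itga8. All 5 also passed a log2 fold change of -1, a bar that 17.5% of all genes tested passed in this direction, and 0 of 9 passed it upwards, against 9.84%. Without BMSCs-OE-FNDC5 replicate 2 the number lower past this bar was 3, and without BMSCs-OE-FNDC5 replicate 3 the number higher was 2, Itgb5 being added. The counts scaled to TMM-adjusted library size (CPM) of both groups did not overlap for 7 of the 9 chains. The share over all genes tested was 78.3%, so this was near the background. The median log2 fold change was -1.02 over the 9 chains and -0.04 over all genes tested. Because the chains were chosen with earlier results of these data known, these comparisons with all genes are descriptive only.

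**Figure D1:**
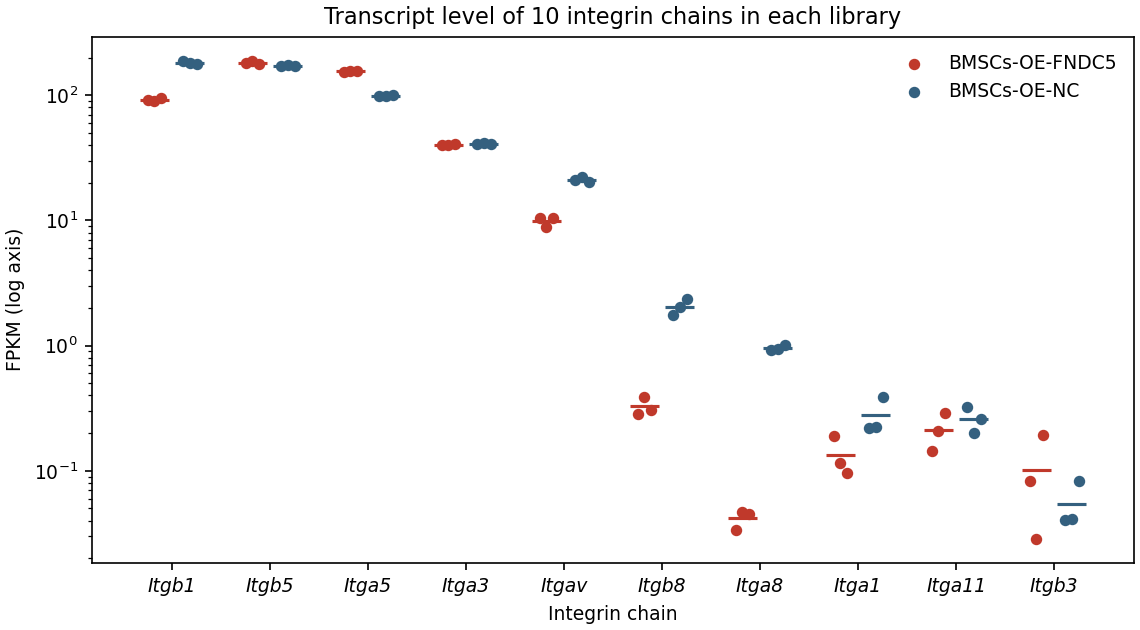
FPKM on a log axis for each of the 10 chains, ordered by the mean in BMSCs-OE-NC. Each point is 1 library (3 per group, BMSCs-OE-FNDC5 at left in red and BMSCs-OE-NC at right in blue) and each bar is the group mean. Itga5 sits higher in BMSCs-OE-FNDC5 (155 against 99.0 FPKM), Itgb1 lower (92.1 against 183 FPKM), and Itga8 has the lowest mean there, 0.0419 FPKM.

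The chain order differed between the groups. In BMSCs-OE-FNDC5 Itgb5 was the most abundant at 182 FPKM, followed by Itga5, Itgb1, Itga3, Itgav and Itgb8, and the library values of each of these neighbours down to Itgb8 did not overlap. Among the lowest chains there, Itgb8, Itga11, Itga1, Itgb3 and Itga8, no neighbours were apart beyond their spread. In BMSCs-OE-NC Itgb1 led at 183 FPKM, ahead of Itgb5, Itga5, Itga3, Itgav, Itgb8 and Itga8, all apart from the next, whereas Itga1 and Itga11 overlapped and Itgb3 came last.

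Itgav, the alpha chain of the receptors for vitronectin and for latent TGF-beta, lies on chromosome 3 from 71114100 to 71202411 in the annotation of the count table. It had 10.5, 8.92 and 10.6 FPKM in BMSCs-OE-FNDC5, against 21.1, 22.1 and 20.4 FPKM in BMSCs-OE-NC. Every BMSCs-OE-FNDC5 library was below every BMSCs-OE-NC library, and the second BMSCs-OE-FNDC5 library was the lowest of the 6. Raw counts were 427 to 520 in BMSCs-OE-FNDC5 and 1343 to 1468 in BMSCs-OE-NC. The log2 fold change was -1.11 (SE 0.06, adjusted p = 3.51e-08), which is 2.16-fold lower in BMSCs-OE-FNDC5.

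Itgb1, the beta chain shared by most matrix receptors of stroma (chromosome 19, 61677542 to 61725535), had 91.7, 89.8 and 94.7 FPKM in BMSCs-OE-FNDC5, against 189, 181 and 179 FPKM in BMSCs-OE-NC. The groups were far apart and each was tight. Its log2 fold change was -1.02 (SE 0.03, adjusted p = 1.47e-10), a value that stood at the edge of the fold bar: it was -0.99 with DESeq2. Itgav and Itgb1 therefore fell by similar amounts.

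Itgb5, the beta chain of the alpha V receptor for vitronectin (chromosome 11, 70056500 to 70172372), had 182, 187 and 176 FPKM in BMSCs-OE-FNDC5, against 171, 174 and 172 FPKM in BMSCs-OE-NC. These FPKM values did not overlap, whereas TMM-scaled CPM did (685 to 725 in BMSCs-OE-FNDC5 against 674 to 688 in BMSCs-OE-NC). The log2 fold change was 0.05 (SE 0.03, adjusted p = 0.10) and did not pass. With library size alone it passed as lower (-0.32, adjusted p = 8.82e-07). It passed as higher at 0.08 with DESeq2 (adjusted p = 0.00886) and without BMSCs-OE-FNDC5 replicate 3 (adjusted p = 0.0285). Over the alternatives that tested for any change, its adjusted p ran between 8.02e-09 and 0.503. The count table gives this gene the biotype of a processed transcript, not of a protein-coding gene.

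Itgb8, which joins alpha V in a receptor that activates latent TGF-beta (chromosome 6, 147094097 to 147172813), was counted 15, 20 and 16 times in BMSCs-OE-FNDC5, against 126, 144 and 165 times in BMSCs-OE-NC. The groups did not overlap. Summed counts of 51 and 435, scaled to library size with TMM, gave a level 6.36-fold lower in BMSCs-OE-FNDC5 (95% interval 4.75 to 8.67, counting error only), and the log2 fold change was -2.66 (SE 0.21, adjusted p = 3.85e-07). Mean levels were 0.326 FPKM in BMSCs-OE-FNDC5 and 2.04 FPKM in BMSCs-OE-NC, so this was a low chain in both.

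Itgb3, the beta chain of the alpha V receptor of osteoclasts and platelets (chromosome 10, 92667869 to 92783410), was counted 3, 1 and 7 times in BMSCs-OE-FNDC5, against 2, 2 and 4 times in BMSCs-OE-NC. The groups overlapped, and the ratio of summed counts of BMSCs-OE-FNDC5 to BMSCs-OE-NC was 1.85 with a 95% interval of 0.676 to 5.28. A change of this chain was not detectable at this depth.

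Itga5, the fibronectin receptor chain (chromosome 7, 144970444 to 144993652), was the 1 chain called higher. It had 153, 157 and 156 FPKM in BMSCs-OE-FNDC5, against 97.9, 98.0 and 101 FPKM in BMSCs-OE-NC. All BMSCs-OE-FNDC5 libraries were above all BMSCs-OE-NC libraries. The log2 fold change was 0.62 (SE 0.03, adjusted p = 1.77e-09), or 1.54-fold higher in BMSCs-OE-FNDC5. It passed in the same direction under all 19 alternatives, with values between 0.25 and 1.20.

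Itga3, a laminin receptor chain that pairs with beta 1 (chromosome 10, 82855613 to 82887497), had 39.9, 39.8 and 40.9 FPKM in BMSCs-OE-FNDC5, against 41.1, 41.4 and 40.5 FPKM in BMSCs-OE-NC. The FPKM values overlapped, although the CPM values did not. The log2 fold change was -0.05 (SE 0.03, adjusted p = 0.10) and did not pass. Under library size scaling it was -0.42 and with the length trend removed it was 0.60, and both passed in opposite directions.

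Itga8, which pairs with beta 1 in a receptor for RGD ligands such as nephronectin and is a chain of smooth muscle and perivascular stroma (chromosome 17, 79321900 to 79676499), showed the largest change of the 9 tested chains. It was counted 3, 4 and 4 times in BMSCs-OE-FNDC5, against 111, 113 and 120 times in BMSCs-OE-NC. The groups were far apart. The summed counts gave a level 23.3-fold lower in BMSCs-OE-FNDC5 (95% interval 12.9 to 47.1, counting error only), with a log2 fold change of -4.50 (SE 0.25, adjusted p = 1.98e-08).

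Both collagen receptor chains were near the detection limit. Itga1 (chromosome 2, 47127219 to 47281421) was counted 12, 7 and 6 times in BMSCs-OE-FNDC5, against 19, 19 and 33 times in BMSCs-OE-NC. The groups did not overlap, and its log2 fold change was -1.08 (SE 0.42, adjusted p = 0.0385). This call rested on few reads: it was lost with DESeq2 (adjusted p = 0.106), with a replicate block (-1.06, adjusted p = 0.0668) and without BMSCs-OE-FNDC5 replicate 2 or 3 or BMSCs-OE-NC replicate 3 (adjusted p = 0.0991, 0.115 and 0.179), and over all alternatives its adjusted p ran between 0.00885 and 0.35. Pelo, a gene of ribosome rescue, lies within the Itga1 span on the same strand and summed to 7430 counts in BMSCs-OE-FNDC5 and 4423 counts in BMSCs-OE-NC, and how reads shared by overlapping genes were assigned was not tested. Itga11 (chromosome 8, 67615635 to 67683973) was counted 10, 14 and 20 times in BMSCs-OE-FNDC5, against 31, 19 and 24 times in BMSCs-OE-NC, which overlapped, and its log2 fold change of -0.32 (SE 0.36, adjusted p = 0.43) did not pass.

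**Figure D2:**
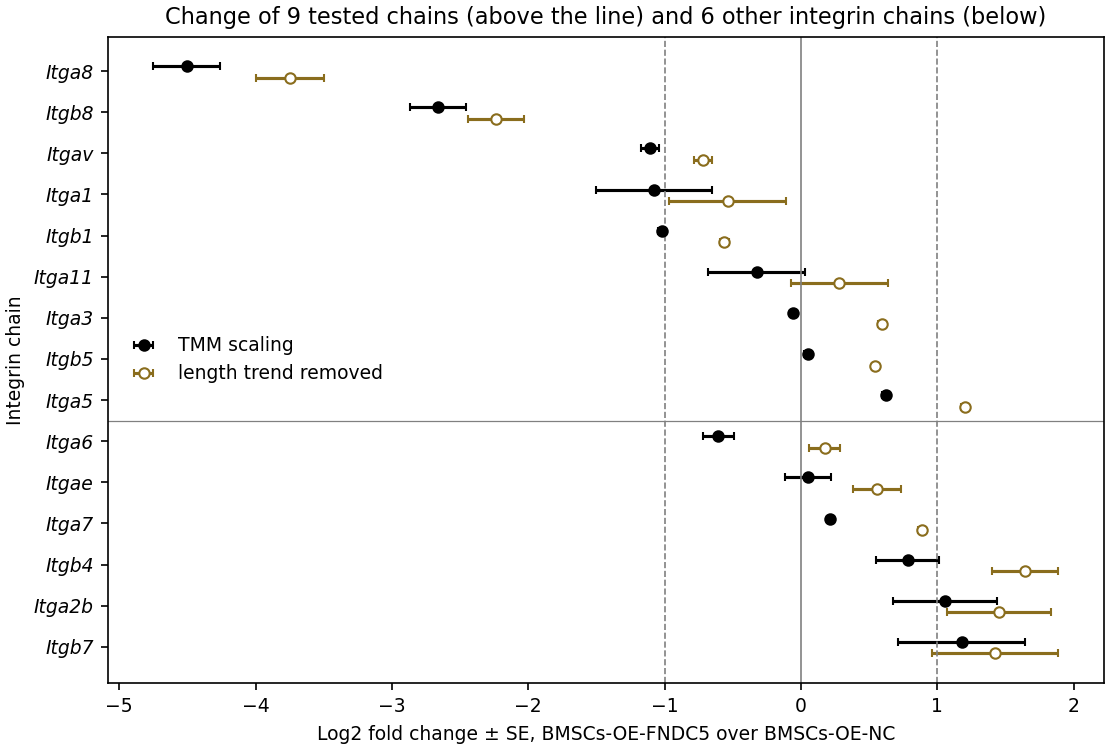
Log2 fold changes with SE, positive where BMSCs-OE-FNDC5 was higher than BMSCs-OE-NC, for the 9 tested chains above the line and 6 other integrin chains below it (3 libraries per group). Filled points use TMM scaling and open points carry an offset for gene length; dashed lines mark a log2 fold change of 1 in either direction. Every open point lies to the right of its filled point, and Itgav, Itgb1, Itgb8, Itga8 and Itga1 lie left of 0 on both, although the Itga1 call is lost with the offset.

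The values varied with gene length. Over all genes tested, the median log2 fold change was 0.65 in the shortest eighth by length (49 to 956 bases) and -0.84 in the longest (4723 to 29464 bases). The 10 chains were longer than 53.1 to 93.2% of the tested genes. In the length class of Itgav and Itgb8 (2801 to 3530 bases) the median was -0.26, and in that of Itgb1, Itgb5, Itga5, Itga1 and Itga11 (3532 to 4722 bases) it was -0.43. With the trend of each library removed as an offset in edgeR, Itgav was at -0.72, Itgb1 at -0.56, Itgb8 at -2.24 and Itga8 at -3.75, and all 4 remained lower. Itga5 then stood at 1.20 and Itgb5 at 0.55, both passing as higher, and Itga1 at -0.54 did not pass (adjusted p = 0.281). Under this setting 3 of 9 chains were higher, against 40.7% of all genes tested, and 4 lower, against 30.8%. With library size alone 1 of 9 was higher, against 22.0%, and 7 lower, against 55.4%. What lies behind the trend with length was not tested.

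The ratio of 2 chains within a library does not depend on how the libraries are scaled to each other, so 9 pairs that can form receptors were compared by exact permutation of the libraries (two-sided, smallest possible p = 0.1, or 0.18 when adjusted over the 9 pairs). Itgb1 transcripts stood at 9.24 times those of Itgav per length in BMSCs-OE-FNDC5 (8.75 to 10.1) and at 8.64 times in BMSCs-OE-NC (8.19 to 8.96), which overlapped (exact permutation p = 0.40, adjusted p = 0.45). Itgb5 stood at 18.2 times Itgav in BMSCs-OE-FNDC5 (16.7 to 20.9) and at 8.14 times in BMSCs-OE-NC (7.90 to 8.44), without overlap. The Itgb5 to Itgav ratio was thus higher in BMSCs-OE-FNDC5, with a log2 difference of 1.16 (exact permutation p = 0.1, adjusted p = 0.18).

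The Itgb8 to Itgav ratio was 0.0325 in BMSCs-OE-FNDC5 and 0.0955 in BMSCs-OE-NC, a log2 difference of -1.56 (exact permutation p = 0.1). For the fibronectin receptor, Itgb1 stood at 0.593 times Itga5 in BMSCs-OE-FNDC5 and at 1.85 times in BMSCs-OE-NC, so the order of both chains was turned round (log2 difference -1.64, exact permutation p = 0.1). For the laminin receptor, Itgb1 stood at 2.29 times Itga3 in BMSCs-OE-FNDC5 and at 4.46 times in BMSCs-OE-NC. Against Itga8 it stood at 2217 times in BMSCs-OE-FNDC5 and at 191 times in BMSCs-OE-NC, though the BMSCs-OE-FNDC5 ratio rests on 11 reads of Itga8. Ratios of Itgb3 to Itgav, and of Itgb1 to Itga1 and to Itga11, overlapped between the groups (exact permutation p = 0.2, 0.8 and 0.2).

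**Figure D3:**
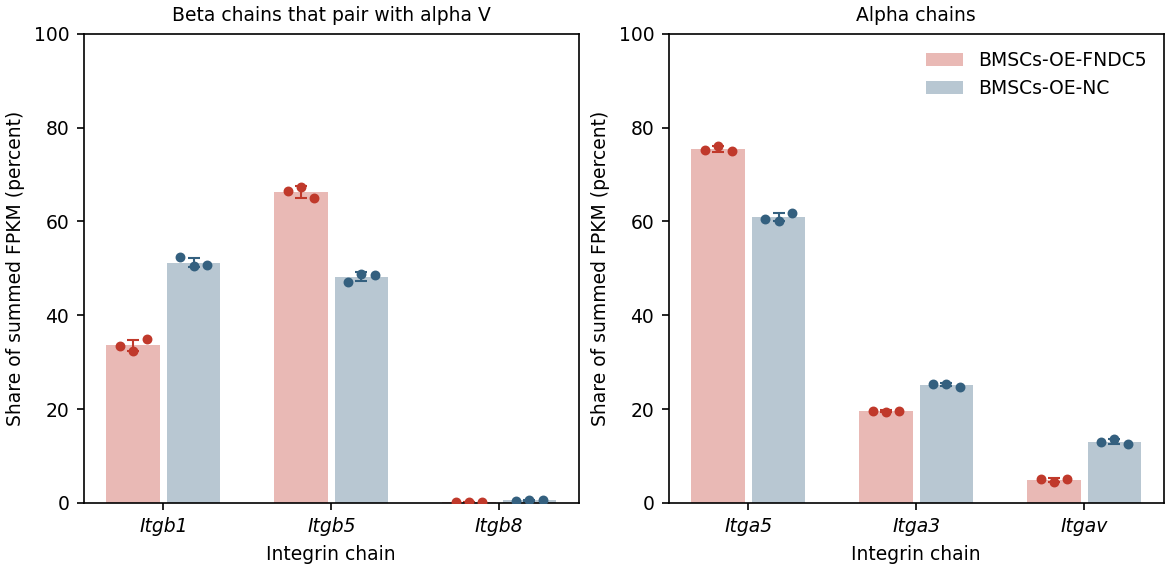
Share in percent of the summed FPKM of the beta chains that pair with alpha V (left panel: Itgb1, Itgb5, Itgb8 of a sum that also holds Itgb3) and of the 6 alpha chains (right panel: Itga5, Itga3, Itgav). Bars are means with SD and points are libraries (3 per group, BMSCs-OE-FNDC5 in red at left of each pair, BMSCs-OE-NC in blue). Itgb5 held 66.3% in BMSCs-OE-FNDC5 against 48.2% in BMSCs-OE-NC, and Itgav held 4.85% against 13.0%. The alpha sum does not hold Itga7.

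The makeup of the chain pool differed accordingly. Of the summed FPKM of Itgb1, Itgb3, Itgb5 and Itgb8, which was 274 ± 2.61 in BMSCs-OE-FNDC5 and 357 ± 4.26 in BMSCs-OE-NC (SD, n = 3 each), Itgb5 took 66.3% ± 1.24 in BMSCs-OE-FNDC5 and 48.2% ± 0.902 in BMSCs-OE-NC, and Itgb1 took 33.6% ± 1.22 in BMSCs-OE-FNDC5 and 51.2% ± 0.977 in BMSCs-OE-NC. Most of the beta chain transcript was thus Itgb5 in BMSCs-OE-FNDC5 and Itgb1 in BMSCs-OE-NC. Of the 6 alpha chains, which summed to 206 ± 1.87 FPKM in BMSCs-OE-FNDC5 and 163 ± 1.06 FPKM in BMSCs-OE-NC, Itga5 took 75.4% ± 0.630 in BMSCs-OE-FNDC5 and 60.9% ± 0.840 in BMSCs-OE-NC. Itgav took 4.85% ± 0.448 in BMSCs-OE-FNDC5 and 13.0% ± 0.555 in BMSCs-OE-NC. The alpha sum leaves out Itga7, which averaged 152 FPKM in BMSCs-OE-FNDC5 and 128 FPKM in BMSCs-OE-NC. The alpha shares are therefore shares of these 6 chains and not of all alpha chain transcript. None of these shares overlapped between the groups, and each gave the smallest exact permutation p of 0.1. The shares do not depend on how the libraries are scaled, but the sums do. They rest on FPKM constants of 14650500 to 15122400 in BMSCs-OE-FNDC5 and 20200500 to 20677500 in BMSCs-OE-NC. Scaled to total counts instead, the alpha sum would be lower in BMSCs-OE-FNDC5 than in BMSCs-OE-NC, and the beta sum would stay lower. The direction of the alpha sum thus depends on the scaling.

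Of 15 further integrin chains in the table, 5 had 0 counts in every library: Itga4, Itga9, Itgad, Itgal and Itgb6. Of the 6 that could be tested, 4 were higher in BMSCs-OE-FNDC5 and 1 was lower, against 36.9% and 38.8% of all genes tested. Library size alone gave 0 higher and 2 lower, against 22.0% and 55.4%. The length offset gave 5 higher and 0 lower, against 40.7% and 30.8%. Itga7, the laminin receptor chain of muscle, reached the range of the leading chains, with a mean of 152 FPKM in BMSCs-OE-FNDC5 and 128 FPKM in BMSCs-OE-NC (log2 fold change 0.22, SE 0.03, adjusted p = 1.73e-05), but under library size scaling it was lower at -0.15 (adjusted p = 0.00027). Itga6, another laminin receptor chain, averaged 1.99 FPKM in BMSCs-OE-FNDC5 and 2.97 FPKM in BMSCs-OE-NC (-0.61, adjusted p = 0.000524) and stood at 0.17 with the length trend removed. The platelet chain Itga2b (1.06, adjusted p = 0.0261), the hemidesmosome chain Itgb4 (0.78, adjusted p = 0.0103) and the leukocyte chain Itgb7 (1.18, adjusted p = 0.0387) were called higher on at most 94 counts per library. The Itgb4 call was lost without BMSCs-OE-FNDC5 replicate 1 (0.51), the Itga2b call without BMSCs-OE-FNDC5 replicate 1 or 2 or BMSCs-OE-NC replicate 1 or 2 (0.91, 0.89, 1.07 and 0.89), and the Itgb7 call without any 1 of 5 libraries (0.73 without BMSCs-OE-FNDC5 replicate 2). All 3 calls were also lost with library size alone (adjusted p = 0.121 for Itga2b, 0.128 for Itgb4 and 0.134 for Itgb7). The intraepithelial T cell chain Itgae had a log2 fold change of 0.05 (adjusted p = 0.79).

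Among 13 tested RGD-type ligands 4 were higher and 7 lower in BMSCs-OE-FNDC5 (median log2 fold change -0.34). For this and the lists that follow, the shares over all genes tested were 36.9% higher and 38.8% lower. They were 22.0% and 55.4% with library size alone, and 40.7% and 30.8% with the length offset. Tgfbi, a matrix protein that binds integrins, had 60.4 FPKM in BMSCs-OE-FNDC5 and 7.59 FPKM in BMSCs-OE-NC (log2 fold change 2.97), and Mfge8, which bridges dying cells to alpha V integrins, rose by 0.42. Thbs1 fell by 1.47, Tnc by 1.10, the microfibril gene Fbn1 by 1.10 and the elastic fibre gene Fbln5 by 2.89. With the length trend removed Thbs1 was at -1.01, Tnc at -0.20 and Fbln5 at -2.71, and Fbn1 was at -0.03 and did not pass. Chosen after their values were seen, the fibronectin gene Fn1 averaged 572 FPKM in BMSCs-OE-FNDC5 and 379 FPKM in BMSCs-OE-NC (log2 fold change 0.57), and the osteopontin gene Spp1 averaged 87.6 FPKM in BMSCs-OE-FNDC5 and 127 FPKM in BMSCs-OE-NC (-0.56). Vitronectin (Vtn) and the 3 fibrinogen chains had 0 counts in all libraries.

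Among 17 tested collagens and laminins 6 were higher and 8 lower (median -0.26). The collagen VI chains Col6a2 and Col6a1 rose by 1.45 and 1.44. The laminin chains Lamb1, Lama4 and Lamc1 fell by 1.59, 1.39 and 1.24, and Col1a1 fell by 0.34. With the length trend removed 11 of the 17 were higher and 3 lower (median 0.63), and Col1a1 stood at 0.42. Lamb1, Lama4 and Lamc1 then stood at -0.84, -0.62 and -0.45.

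Among 27 tested activators and adaptors, which couple the beta tail to actin, 14 were higher and 10 lower (median 0.22). The focal adhesion proteins Csrp1 (0.81), Tgfb1i1 (0.96), Zyx (0.58) and Vasp (0.52) were higher in BMSCs-OE-FNDC5. Past a log2 fold change of 1 in either direction, 0 of the 27 were higher and 2 were lower. These were Lims1 (-1.54) and Lpp (-1.36), named after their values were seen. Of the direct activators, talin Tln1 and kindlin Fermt2 were lower. Tln1 had 52.9 FPKM in BMSCs-OE-FNDC5 and 72.6 FPKM in BMSCs-OE-NC (-0.48), and Fermt2 had 33.1 FPKM in BMSCs-OE-FNDC5 and 48.1 FPKM in BMSCs-OE-NC (-0.57). The other talin, Tln2, named after its values were seen, was higher at 4.34 FPKM in BMSCs-OE-FNDC5 and 3.17 FPKM in BMSCs-OE-NC (0.43, adjusted p = 0.000189). Direction for this list depended on scaling, since library size alone gave 7 higher and 16 lower, and the length offset gave 20 higher and 5 lower with Tln1 at 0.52.

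Among 27 tested signalling genes 9 were higher and 13 lower (median -0.12). The kinase Rock2 fell by 1.44, the exchange factor Dock1 by 1.16, the small GTPase Rap1b by 0.87 and the adaptor Crk by 1.02. The integrin-linked kinase Ilk rose by 0.57 and the scaffold Git1 by 0.52. The balance of this list turned with scaling: library size alone gave 4 higher and 22 lower (median -0.49), and the length offset 14 higher and 10 lower (median 0.20). Under the length offset Rock2 stood at -0.52, Dock1 at -0.30, Rap1b at -1.46 and Crk at -1.29. Among 14 tested membrane partners 9 were higher and 3 lower (median 0.49): the glypican Gpc1 rose by 1.18, the tetraspanins Cd81 and Cd82 by 1.25 and 0.68 and basigin (Bsg) by 0.74, whereas Cav1 fell by 0.54 and Sdc2 by 0.35, of which Sdc2 stood at -0.026 and did not pass with the length offset (adjusted p = 0.468).

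Of 7 tested genes of latent TGF-beta, the cargo that alpha V receptors release, 4 were higher and 2 lower (median 0.17). Tgfb1, which carries an RGD sequence in its latency peptide, had 99.7 FPKM in BMSCs-OE-FNDC5 and 77.3 FPKM in BMSCs-OE-NC (0.34). Its surface anchor Lrrc32 stood at 0.76, Tgfb3 at 0.31 and the binding protein Ltbp2 at 0.17, whereas Ltbp1 fell by 0.92 and Ltbp4 by 0.54. With library size alone, 1 of these genes was higher and 4 were lower. The length offset gave 6 higher and 1 lower, with Ltbp1 at -0.11 and Ltbp4 at 0.17. Among 15 tested genes of integrin traffic 9 were higher and 4 lower (median 0.33). The recycling GTPase Arf6 (0.78), the beta tail sorting protein Snx17 (0.82), Hax1 (0.72) and Rab21 (0.36) were higher, and the retromer subunit Vps35 fell by 1.48 and Rabgap1 by 1.11. With library size alone this list had 5 higher and 5 lower (median -0.04). These lists were described by counts and medians, and none was tested as a set.

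**Figure D4:**
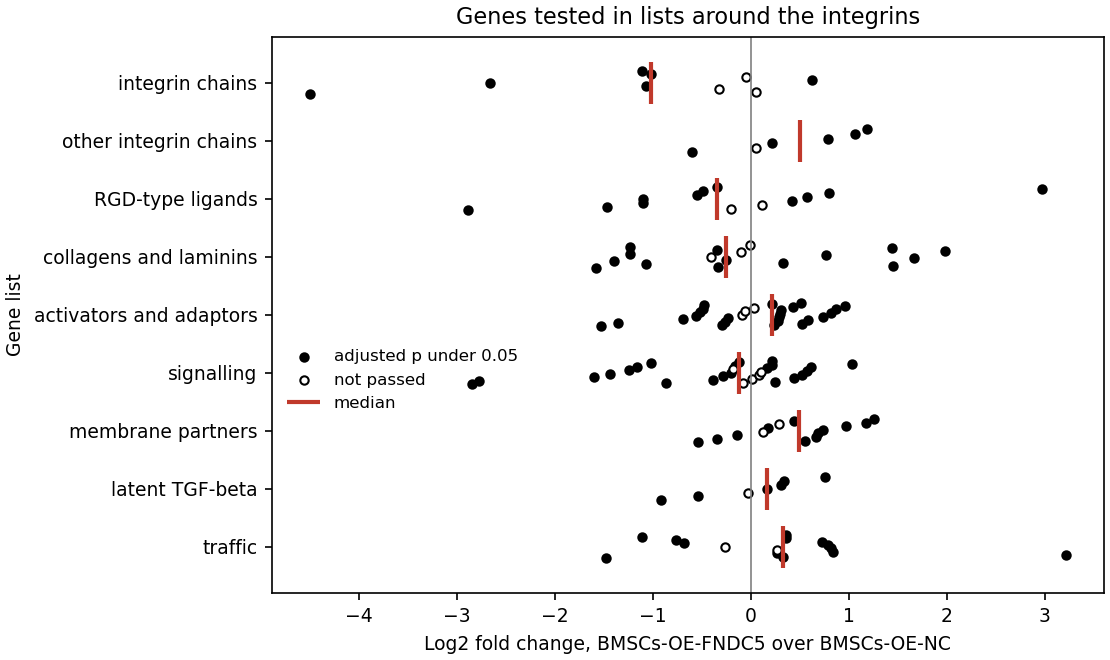
Log2 fold changes, positive where BMSCs-OE-FNDC5 was higher than BMSCs-OE-NC, of the tested genes in 9 lists around the integrins (1 point per gene, 3 libraries per group). Filled points passed an adjusted p of 0.05 in edgeR, open points did not, and red bars are list medians, from -1.02 for the integrin chains to 0.50 for the other integrin chains. Every list holds genes on both sides of 0.

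The genes whose centred log2 CPM over the 6 libraries lay nearest to that of a chain were also sought, as a description of pattern only. For Itgav they were RGD1310553, Phf8 and Ranbp2 (root mean square distance 0.0228 to 0.0328 on the log2 scale). For Itgb1 they were Lamp2, Cul1 and Hspa4 (0.0140 to 0.0188), and for Itgb5 they were Fbxo32, Adcy7 and Hexa (0.0150 to 0.0159). With 2 groups of libraries, genes of like fold change lie near each other: Lamp2, a lysosomal membrane protein, had a log2 fold change of -1.04, close to the -1.02 of Itgb1.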

How the data were processed

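RNA was sequenced from 3 BMSCs-OE-FNDC5 and 3 BMSCs-OE-NC libraries. The authors deposited raw counts per gene and FPKM. The submitters' processing notes name HISAT2 2.1.0, Bowtie2 2.2.3, TopHat2 and HTSeq 0.6.0 and the mouse build mm10, whereas the table holds rat gene identifiers, so the build of the coordinates is not given in the sources used here, nor is a strand setting. The deposited FPKM were the counts divided by gene length and 1 constant per library. That constant was 14650500 to 15122400 in BMSCs-OE-FNDC5 and 20200500 to 20677500 in BMSCs-OE-NC, unlike the total counts. FPKM differences between the groups carry this scaling. Counts were tested with edgeR 4.0.16 (quasi-likelihood, TMM scaling, filterByExpr minimum count 10 and total 15, condition only) in R 4.3.3, with Benjamini-Hochberg adjustment over all 12104 genes tested. CPM are TMM-scaled. A gene was called at an adjusted p below 0.05. Levels between genes were compared on FPKM only. Ratios and shares were computed within each library and tested by exact permutation. The length offset used a lowess trend (span 0.3) of log2 count with gene length. Alternatives were DESeq2 1.42.0, limma 3.58.1 (voom, log2(FPKM + 1) and log2(FPKM + 0.1)), other scalings and filters, a replicate block, a length offset and each library left out. A further alternative, glmTreat in edgeR, tested for an absolute log2 fold change above 0.5 rather than for any change. The script was tested on simulated data in which few genes changed and no trend with gene length was put in. That test does not bear on calls that turn with scaling or length. Total counts of 16640635 to 17965722 per library set the precision, and the 95% intervals of summed counts cover counting error only. Within groups, libraries differed by more than sampling noise. The members and gene lists were chosen with earlier results of these data known. Named were all members, all tested chains of the other integrins and, in each further list, up to 4 tested genes with the smallest p in the prevailing direction and up to 2 in the other. For Itgav, Itgb1 and Itgb5 the 3 nearest genes in pattern were named. Protein sequences and a promoter of Itgb3 were not used here.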

Additional observations from a re-analysis of the deposited data

How the results depend on the processing

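The number of chains called higher was 1 and became 2 with DESeq2, with its size factors in edgeR and on log2(FPKM + 1) or log2(FPKM + 0.1), and 3 with the length offset, with or without the replicate block. The number lower past a log2 fold change of -1 was 5 and became 3 with DESeq2, on log2(FPKM + 0.1) and with at least 10 counts in every library, and 2 on log2(FPKM + 1) and with the length offset, with or without the block, where 1 chain was higher past the bar. The number lower, 5, was 7 with library size alone, Itgb5 and Itga3 being added. Leaving out each library gave 1 to 2 higher, 4 to 5 lower, 0 higher past the bar and 3 to 5 lower past it, and 3 came without BMSCs-OE-FNDC5 replicate 2. Library size alone shifted the median of all genes tested to -0.41 and the length offset to 0.09. Direction turned with upper-quartile scaling for Itgb5 (-0.054) and Itgae (-0.052), and with library size alone for Itgb5 (-0.32), Itga7 (-0.15), Itgae (-0.32), Tgfb1 (-0.029), Ltbp2 (-0.20), Tgfb3 (-0.059) and Rab21 (-0.014). It turned with the length offset for Itga3 (0.60), Itga11 (0.28), Itga6 (0.17), Col1a1 (0.42), Tln1 (0.52) and Ltbp4 (0.17), and with the offset and the block together for the same genes (0.60, 0.28, 0.17, 0.42, 0.52 and 0.17). Itgae turned to -0.11 without BMSCs-OE-FNDC5 replicate 1 and to -0.01 without BMSCs-OE-NC replicate 2. The causes were not tested. Over all alternatives 144 fold changes of the tested chains kept their direction and their side of the threshold, 10 newly passed, 9 no longer passed and 6 turned round. The log2 ratio of Itgb1 to Itga8 was 3.54 and became 1.91 on FPKM + 0.1. With the replicate block Itga1 was at -1.06 (adjusted p = 0.0668) and 4 chains were lower. Over all genes tested, same-numbered libraries did not deviate together (correlations 0.021, -0.025 and -0.0047). This check weighs genes of few counts as much as those of many, so it cannot tell whether the numbers pair the libraries. Depth limits Itgb3, Itga1, Itga11 and, in BMSCs-OE-FNDC5, Itga8.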
